A study of Mus musculus with 8 samples.

Results

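The genes for the integrin alpha and beta chains, the syndecans and the glypicans were examined in RNA sequencing of the adult mouse retina. These genes encode cell surface receptors and co-receptors for the extracellular matrix (ECM). They were chosen by gene name alone, as every row named Itga or Itgb with a chain suffix of 1 or 2 characters, Sdc1 to Sdc4 or Gpc1 to Gpc6, without the integrin-like gene Itgbl1. The rule found 33 of the 18058 genes in the deposited table, namely 16 integrin alpha chains, 7 integrin beta chains, 4 syndecans and 6 glypicans. Retinal RNA from 4 wild-type (WT) samples was compared with RNA from 4 samples of quadruple KO mice, in which the knockout constructs of 4 genes had been combined by crossing the single KO lines, namely those of the proteoglycans neurocan (Ncan) and brevican (Bcan) and of the glycoproteins tenascin-R (Tnr) and tenascin-C (Tnc). The WT mice came from the inbred strain 129S2/SvPasCrl, adult mice of both sexes entered the study, and the samples of each genotype are named A to D. The paper describes a pooling of retinae for RNA extraction, so that each sample may be a pool. The sources used here do not say how many mice gave each sample or which sex each sample had. They also do not say whether the WT mice were littermates of the KO mice. The p-values measure the spread between these samples, which need not be that between single mice. The paper sequenced the RNA to describe changes of gene expression globally when these 4 matrix proteins are missing, with matrix genes among its groups of interest.

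Integrins are heterodimers of an alpha and a beta chain that bind matrix proteins outside the cell and connect them to the actin cytoskeleton inside it. The alpha chain largely sets the ligand: some chains favour laminins, some collagens, some the RGD motif of fibronectin and vitronectin, and some are restricted to leukocytes. Syndecans are transmembrane proteoglycans whose heparan sulfate chains bind matrix proteins and growth factors, whereas glypicans carry similar chains but are held in the membrane by a GPI anchor. In the nervous system, heparan sulfate proteoglycans take part in axon guidance and synapse formation, and several integrins act as receptors of tenascin-C, one of the proteins that the mutant lacks.

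The unit of all values is the normalized count, an estimated number of reads per gene that the authors divided by a normalization factor for each library. The libraries were estimated at 24.0 M to 39.8 M reads in WT and 38.7 M to 51.8 M in the mutant, from the spacing of the low values. WT B and WT C stood apart from the other 6 libraries. The RNA of the signal recognition particle made up 19.3% and 14.8% of their normalized counts, against 6.82% to 8.69% elsewhere, and the mitochondrially encoded mRNAs 0.402% and 0.341%, against 1.28% to 1.64%. Differences between genotypes are therefore given with and without these 2 libraries, and their part in each result was not tested beyond that. Of the targeted genes, Ncan averaged 688 in WT and reached at most 0.853 in any KO library, Bcan fell from 257.9 to 15.0 and Tnr from 5856 to 2509. The mean of Tnc was 1265 in WT and 1175 in the KO (adjusted p = 0.826, limma), so that its transcript level did not distinguish the genotypes. The tissue is bulk retina, in which fewer cells of a type and less RNA per cell cannot be told apart.

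No integrin, syndecan or glypican gene passed the limma test used here for a difference between the quadruple KO and the WT retina. The paper, which used the count model DESeq2, reports Gpc2 as significantly lower in the KO at an adjusted p under 0.05. It also names Gpc1 and Itgb4 as changed at a raw p under 0.05. The absence of calls here thus holds for the limma fit and not for every test of these samples. Of the 33 genes, 31 reached the minimum mean of 10 normalized counts and were tested with limma, a linear model fitted across all genes, while the leukocyte chains Itgal (mean 8.98) and Itgb7 (mean 9.11) stayed below it. At an adjusted p under 0.05, 0 of the 31 were lower and 0 were higher in the KO, where 0.176% of all 17636 tested genes were lower and 0.261% were higher. The lowest adjusted p among the 31 genes was 0.301. At an unadjusted p under 0.05 in the same fit, 4 genes had lower means in the KO (Gpc2, Sdc1, Itgb4 and Itga1), which compares with 7.28% of all tested genes, and 2 had higher means (Sdc2 and Sdc3), which compares with 9.29%. All 4 KO libraries lay below all 4 WT libraries for Gpc2, Sdc1 and Itgav, against 3.58% of all tested genes. They lay above all WT libraries for Sdc2 and Sdc3, against 6.16% of all tested genes. Each of these counts stands within 2 genes of what the background share would give among 31 genes, so that they are no result about the receptor genes as a group.

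The 95% interval of the log2 fold change, on the scale of log2(normalized count + 1), lay between -1 and 1 for 23 of the 31 genes and for 14339 of the 17636 tested genes. By family, the median log2 fold change was -0.02 for the integrin alpha chains, -0.0049 for the integrin beta chains, -0.19 for the syndecans and -0.27 for the glypicans, against -0.00018 for all tested genes. Without WT B and WT C these medians were -0.05, -0.25, 0.05 and -0.08, against 0.01 for all tested genes.

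**Figure D1:**
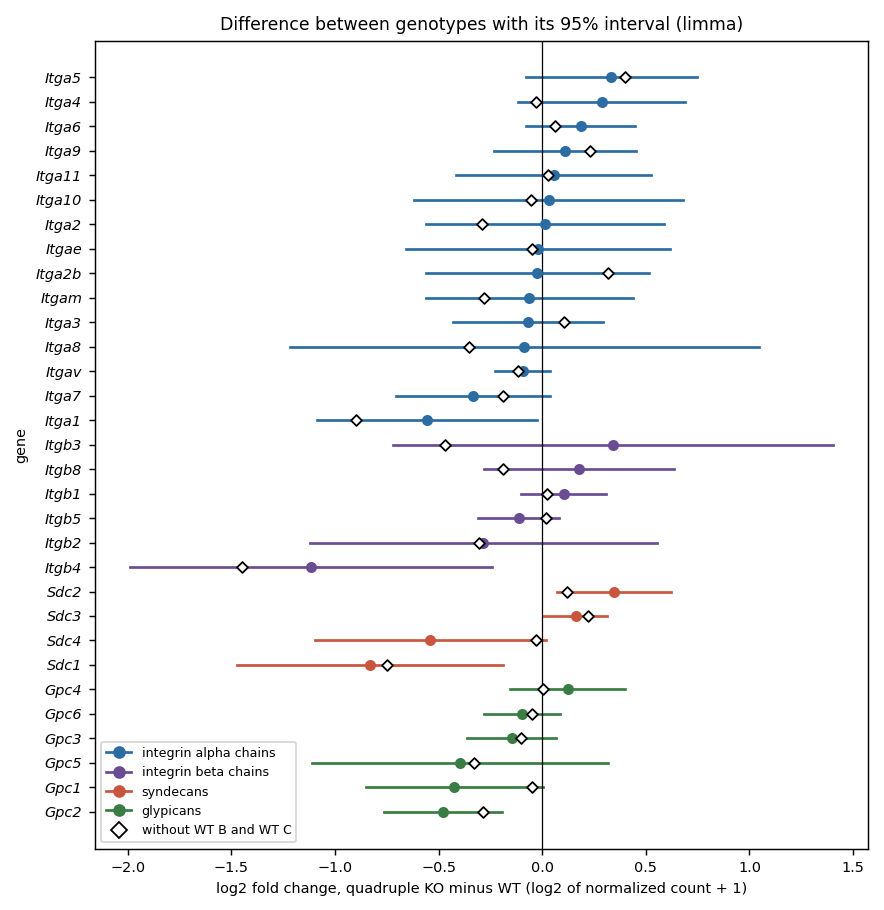
Log2 fold change of each tested receptor gene (quadruple KO minus WT, log2 of the normalized count + 1) with its 95% interval from limma (line) over 4 WT and 4 KO libraries, coloured by family, and the same estimate without WT B and WT C (open diamonds). The lowest value is that of Itgb4 at -1.12, and the diamonds of Sdc4, Gpc1, Itga4 and Gpc4 lie at -0.03, -0.05, -0.03 and 0.0015, near 0.

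Integrin alpha chains were dominated by Itgav, the chain that pairs with several beta chains to bind RGD-containing ligands. Levels between genes were compared as normalized counts per kb of exon. Itgav had 262 ± 5.93 (SD, n = 4) per kb in WT and 245 ± 6.84 in the KO, and it made up 45.7% to 51.5% of the summed level of the 16 alpha chains in the WT libraries and 46.6% to 49.1% in the KO libraries. Itga3, a laminin-binding chain, followed with 108 ± 27.6 per kb in WT, and Itga9, a chain that binds tenascin-C and other ligands, with 49.0 ± 5.69. This order of the first 3 held in all 8 libraries. The next chains, Itga4, Itga7 and Itga6, lay at 22.9 ± 6.09, 21.9 ± 3.59 and 17.1 ± 1.76 per kb in WT and did not keep one order across the libraries. The other 10 alpha chains had WT means from 1.51 per kb (Itgal) to 9.85 per kb (Itga5).

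Itgav was also the steadiest of the alpha chains. Its gene (chr2:83554403-83637260, + strand, GRCm39) had 3335, 3181, 3179 and 3231 normalized counts in WT A to D and 2993, 2991, 2970 and 3152 in KO A to D. Every KO library lay below every WT library, but by a small margin, since KO D and WT C were 3152 and 3179. The log2 fold change was -0.09 ± 0.06 (SE; 95% interval -0.23 to 0.04) with an adjusted p of 0.361 in limma, and an exact two-sided permutation test gave p = 0.0286, the smallest value that 4 against 4 libraries allow. Without WT B and WT C it was -0.12 (unadjusted p = 0.0338, adjusted p = 0.386, limma).

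The collagen-binding chains are Itga1, Itga2, Itga10 and Itga11, and 1 of the 4 reached an unadjusted p under 0.05. Itga1 (chr13:115089632-115238677, - strand), a chain that pairs with Itgb1 and is known from smooth muscle and capillaries, had 164.8, 109.3, 85.1 and 145.9 normalized counts in WT A to D. The KO libraries A to D had 103.5, 96.2, 69.5 and 68.2. The genotypes overlapped, because WT C lay below KO A and KO B, whereas WT A, WT B and WT D were above every KO library. The log2 fold change was -0.56 ± 0.24 (unadjusted p = 0.0420, adjusted p = 0.301, limma; exact permutation p = 0.114). Without WT B and WT C it was -0.90 ± 0.20 (unadjusted p = 0.00173, adjusted p = 0.162, limma).

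The summed normalized count of 8 markers of pericytes and smooth muscle, all of which were listed in the table, was 1856, 1446, 1380 and 1949 in WT A to D, and thus lower in WT B and WT C as for Itga1. It was 1711, 1808, 1693 and 1292 in KO A to D, and the genotypes overlapped. Of these 8 markers, 2 had lower and 0 higher means in the KO at an unadjusted p under 0.05, where 7.28% and 9.29% of all tested genes had. None passed the adjusted test. The median log2 fold change of the 8 markers was -0.16, and the 2 genes named next are those with the lowest p. Notch3, which mural cells require, had 170.1 ± 36.6 in WT and 110.1 ± 17.2 in the KO libraries (log2 fold change -0.61, adjusted p = 0.301, limma) and was highest in WT B with 215.6, and Acta2, the actin of smooth muscle, had 51.8 ± 7.40 and 37.9 ± 6.12 (log2 fold change -0.44, adjusted p = 0.301, limma). The part of these cells in the difference of Itga1 was not tested.

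Itga2 lies 21.0 kb from Itga1 on the same strand of chromosome 13. Mocs2, a gene of molybdenum cofactor synthesis on the opposite strand, overlaps exons of both. It covers 10.2% of the exonic bases of Itga1 and 6.23% of those of Itga2. Mocs2 had a mean of 1194 normalized counts over all libraries, against 105.3 for Itga1 and 45.9 for Itga2. Itga2 (chr13:114969617-115068636) had 57.0, 50.3, 25.6 and 53.7 normalized counts in WT A to D and 40.9, 48.2, 45.1 and 46.2 in KO A to D. The KO libraries lay within the range of the WT libraries, in which WT C was the low one. Its log2 fold change was 0.01 with all libraries and -0.29 without WT B and WT C (adjusted p = 0.977 and 0.528, limma). The other collagen-binding chains, Itga10 and Itga11, had means of 33.3 and 20.4 in WT and 33.4 and 21.1 in the KO, and Gm42957, a model on the same strand that was not listed, covers 33.5% of the exonic bases of Itga10.

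Of the laminin-binding chains, Itga3, Itga6 and Itga7, none had an unadjusted p under 0.05. Itga3 (chr11:94935296-94967682, - strand), which in other tissues anchors epithelia and podocytes to the basement membrane, had 511, 864.5, 552.3 and 579.5 normalized counts in WT A to D and 634.6, 624.4, 528.9 and 558.4 in KO A to D. WT B alone lay above the KO range, and the log2 fold change was -0.07 ± 0.16 with all libraries and 0.10 without WT B and WT C. Itga7 (chr10:128769621-128794169, + strand), best known as the laminin receptor of muscle, had 170.8, 176.3, 223.9 and 154.6 in WT A to D. The KO values were 127.7, 181.2, 145.1 and 121.8, of which only KO B lay inside the WT range. Its log2 fold change was -0.34 ± 0.16 (unadjusted p = 0.0711, adjusted p = 0.310, limma), and -0.19 without WT B and WT C. Itga6, a chain that can also pair with Itgb4, had 194.5 ± 20.0 in WT and 221.1 ± 19.8 in the KO.

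Among the RGD-binding chains other than Itgav, Itga8, a receptor of nephronectin and tenascin-C, was expressed at low and scattered levels. Itga8 (chr2:12110900-12307214, - strand) had 44.1, 80.4, 17.0 and 67.2 normalized counts in WT A to D and 73.1, 52.2, 36.7 and 22.8 in KO A to D. The ranges overlapped almost wholly, and the 95% interval of the log2 fold change reached from -1.22 to 1.04. Itga5, the fibronectin receptor chain, had means of 52.4 ± 8.21 in WT and 66.4 ± 10.8 in the KO (log2 fold change 0.33, adjusted p = 0.328, limma). Itga2b, the platelet chain, had 30.9 ± 8.57 and 29.8 ± 4.31. Its platelet partner Itgb3 is given with the beta chains, and the platelet markers Ppbp, Pf4 and Gp9 were not listed in the table.

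The chains Itga4 and Itga9 bind vascular cell adhesion molecule and matrix proteins. Itga9 (chr9:118435722-118730072, + strand) had 356.9, 381.9, 438.6 and 337.0 normalized counts in WT A to D and 382.6, 346.1, 378.6 and 544.8 in KO A to D. KO D was above the other 7 libraries, which overlapped, and the log2 fold change was 0.11 ± 0.15 (adjusted p = 0.673, limma). For Itga4 the mean was 383.6 ± 101.9 in WT and 456.0 ± 22.6 in the KO, and its log2 fold change of 0.29 became -0.03 without WT B and WT C. Exons of Cerkl, a gene of photoreceptor survival on the opposite strand, cover 20.8% of the exonic bases of Itga4, and Cerkl had a mean of 1395 normalized counts over all libraries.

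The leukocyte chains were near the lower limit of the table. Itgam, a marker of microglia and macrophages, averaged 39.2 ± 8.25 in WT and 37.4 ± 8.08 in the KO. A gene model on the same strand that was not listed in the table, Gm49368, covers 67.4% of the exonic bases of Itgam, so that reads may be divided between both. Itgae, a chain of intraepithelial lymphocytes, averaged 21.0 ± 3.67 and 21.4 ± 7.34. Itgal, the alpha chain of LFA-1, had 4.75 to 14.0 over the 8 libraries. The genes Itgad and Itgax were not analysed here. The summed count of 10 microglia markers, all listed, was 710 to 1002 in WT and 757.7 to 793.6 in the KO.

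Integrin beta chains fell into an abundant and a scarce group. Itgb1, the common partner of most alpha chains, averaged 261 ± 29.5 per kb in WT and 279.5 ± 5.10 in the KO. Itgb5, a partner of Itgav known in the retina from the phagocytosis of photoreceptor outer segments by the pigment epithelium, had 269 ± 29.3 and 248 ± 8.27, and Itgb8, a partner of Itgav that activates latent TGF-beta, 157 ± 52.8 and 171 ± 10.3. Itgb1 was above Itgb5 in 2 of 4 WT and in 4 of 4 KO libraries, and both were above Itgb8 in all 8 libraries. The other beta chains, Itgb2, Itgb3, Itgb4 and Itgb7, had means of 2.18 to 5.46 per kb in WT. Itgb2l and Itgb6 were not analysed here.

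**Figure D2:**
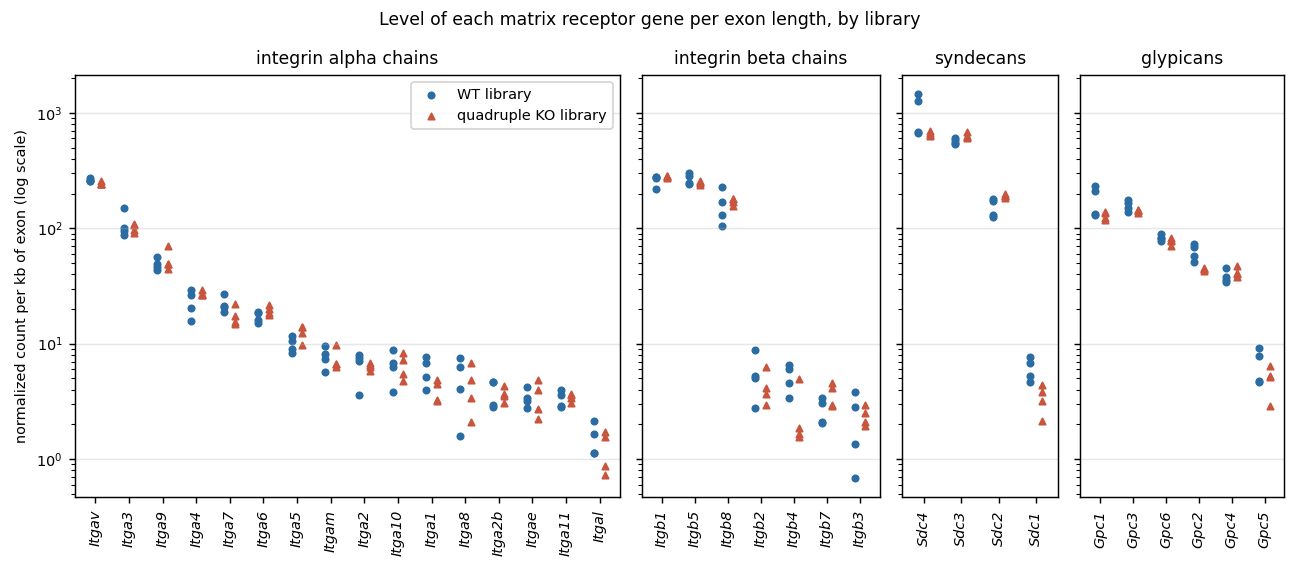
Normalized counts per kb of exon (log scale) of the 33 receptor genes in each WT library (blue circles) and each quadruple KO library (red triangles), by family and in order of the mean. Itgav leads the alpha chains with WT and KO means of 262 and 245, Itgb1 and Itgb5 lead the beta chains, and Sdc4 and Sdc3 have the highest levels of all 33 genes.

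Itgb1 (chr8:129411876-129460618, + strand) had 1652, 1297, 1665 and 1627 normalized counts in WT A to D and 1646, 1639, 1699 and 1691 in KO A to D. WT B was the low library, while the other 7 lay between 1627 and 1699, and the log2 fold change was 0.10 ± 0.09 (95% interval -0.10 to 0.31, limma). Itgb5 (chr16:33649988-33771137, + strand) had 1719, 2015, 2135 and 1737 in WT A to D and 1811, 1780, 1729 and 1679 in KO A to D. WT B and WT C were above all other libraries, and the log2 fold change of -0.11 became 0.02 without them. Itgb8 (chr12:119121748-119202584, - strand) had 1899, 1460, 1186 and 2548 in WT A to D and 1771, 1913, 2016 and 2016 in KO A to D. Here WT B and WT C were the lowest and WT D the highest of all libraries, and the log2 fold change of 0.18 turned to -0.19 without WT B and WT C. The unadjusted p of all 3 was above 0.05 in limma.

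The difference of largest size among all tested receptor genes was that of Itgb4 (chr11:115865333-115899239, + strand), the chain that forms the laminin receptor of hemidesmosomes with Itga6. Itgb4 had 47.0, 32.9, 24.2 and 43.8 normalized counts in WT A to D. In the quadruple KO, KO A had 36.0, while KO B, C and D had 11.2, 11.9 and 13.3 and lay below every WT library. In limma the log2 fold change was -1.12 ± 0.39 (95% interval -1.99 to -0.24; unadjusted p = 0.0179, adjusted p = 0.301, limma; exact permutation p = 0.0857). It was -1.45 without WT B and WT C (adjusted p = 0.288, limma). The values correspond to an estimated 14.2 reads or more per library. Exons of Galk1 on the opposite strand cover 14.9% of the exonic bases of Itgb4. Galk1 had a mean of 301.7 normalized counts over all libraries, against 27.5 for Itgb4. Whether reads of Galk1 enter the values of Itgb4 was not tested.

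KO A, the library with the high Itgb4 value, also had the highest count of Krt15, a single marker of the ciliary and corneal list. Krt15, a keratin of basal epithelial cells such as those of the cornea, had 47.9 normalized counts in KO A against 8.11 to 12.4 in the other KO libraries and 3.95 to 9.31 in WT. Of the ciliary and corneal markers, 8 of 9 were listed and summed to 1215 to 1377 in WT and 1185 to 1279 in the KO, but Opcml, which neurons also express, made up 75.9% to 84.5% of this sum. The other 7 markers, a subset formed after their values were seen, still include Krt15. They summed to 262.3, 234.2, 242.9 and 274.4 in KO A to D and to 188.4 to 312.2 in WT. Among the KO libraries the sum was highest in KO D, and the 262.3 of KO A include the 47.9 of Krt15. Krt14 was not listed in the table. The part of these cells in the values of Itgb4 was not tested.

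The other scarce beta chains gave wide intervals. Itgb3 (chr11:104498826-104561302, + strand), the partner of Itgav and Itga2b, had 25.4, 8.97, 4.52 and 18.8 normalized counts in WT A to D and 19.6, 13.9, 12.7 and 16.6 in KO A to D. The KO libraries lay within the WT range, and the log2 fold change was 0.34 ± 0.47 with all libraries and -0.47 without WT B and WT C. The lowest of these values corresponds to an estimated 3.07 reads. Itgb2, the leukocyte chain, had 17.7 ± 8.10 in WT and 13.8 ± 4.65 in the KO, and Itgb7, also a leukocyte chain, 7.73 ± 1.98 and 10.5 ± 2.46.

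Syndecans were led by Sdc4 and Sdc3. Per kb, the WT means were 1021 ± 409 for Sdc4, 566 ± 28.1 for Sdc3, 152 ± 27.2 for Sdc2 and 6.12 ± 1.40 for Sdc1, and the KO means were 660 ± 30.1, 633.5 ± 33.2, 190.2 ± 5.33 and 3.37 ± 0.964. The order Sdc4, Sdc3, Sdc2, Sdc1 held in all 8 libraries. Sdc4 made up 47.8% to 66.6% of the summed syndecan level in the WT libraries and 43.7% to 45.6% in the KO libraries.

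Sdc4 (chr2:164266025-164285807, - strand), a syndecan of focal adhesions, showed the widest spread among the abundant receptor genes, and this spread lay within the WT group. It had 1962, 4242, 3692 and 1938 normalized counts in WT A to D and 1855, 1834, 2025 and 1938 in KO A to D. WT A and WT D lay within the KO range, whereas WT B and WT C were well above it. This gave a log2 fold change of -0.54 ± 0.25 with all libraries (unadjusted p = 0.0560, adjusted p = 0.302, limma) and -0.03 ± 0.06 without WT B and WT C, where the KO mean was 98.1% of the mean of WT A and WT D.

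Sdc2 and Sdc3 were the 2 receptor genes with higher means and an unadjusted p under 0.05. Sdc2 (chr15:32920699-33035213, + strand), a syndecan of dendritic spines and vessels, had 1241, 878.4, 912.9 and 1206 normalized counts in WT A to D and 1291, 1380, 1321 and 1325 in KO A to D. The groups did not overlap, WT B and WT C being the lowest libraries. The estimated log2 fold change was 0.34 ± 0.12 (unadjusted p = 0.0195, adjusted p = 0.301, limma; exact permutation p = 0.0286), and it was 0.12 ± 0.05 without WT B and WT C (adjusted p = 0.435, limma).

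Sdc3 (chr4:130519826-130556217, + strand), the syndecan most typical of neurons, had 4731, 5301, 5095 and 4884 normalized counts in WT A to D and 5597, 5452, 6010 and 5337 in KO A to D. The groups did not overlap, although KO D and WT B were as close as 5337 and 5301. In limma the log2 fold change was 0.16 ± 0.07 (unadjusted p = 0.0388, adjusted p = 0.301, limma; exact permutation p = 0.0286), and 0.22 ± 0.06 without WT B and WT C (unadjusted p = 0.00358, adjusted p = 0.226, limma). The KO mean was 111.9% of the WT mean.

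Sdc1 (chr12:8820854-8843725, + strand), the syndecan of epithelia and plasma cells, had 28.6, 32.1, 22.0 and 19.4 normalized counts in WT A to D and 15.8, 8.85, 18.3 and 13.4 in KO A to D. The groups did not overlap, with WT D and KO C as the nearest libraries. This gave a log2 fold change of -0.83 ± 0.28 (unadjusted p = 0.0165, adjusted p = 0.301, limma; exact permutation p = 0.0286) and -0.75 ± 0.33 without WT B and WT C (adjusted p = 0.433, limma). Its lowest value corresponds to an estimated 11.9 reads.

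**Figure D3:**
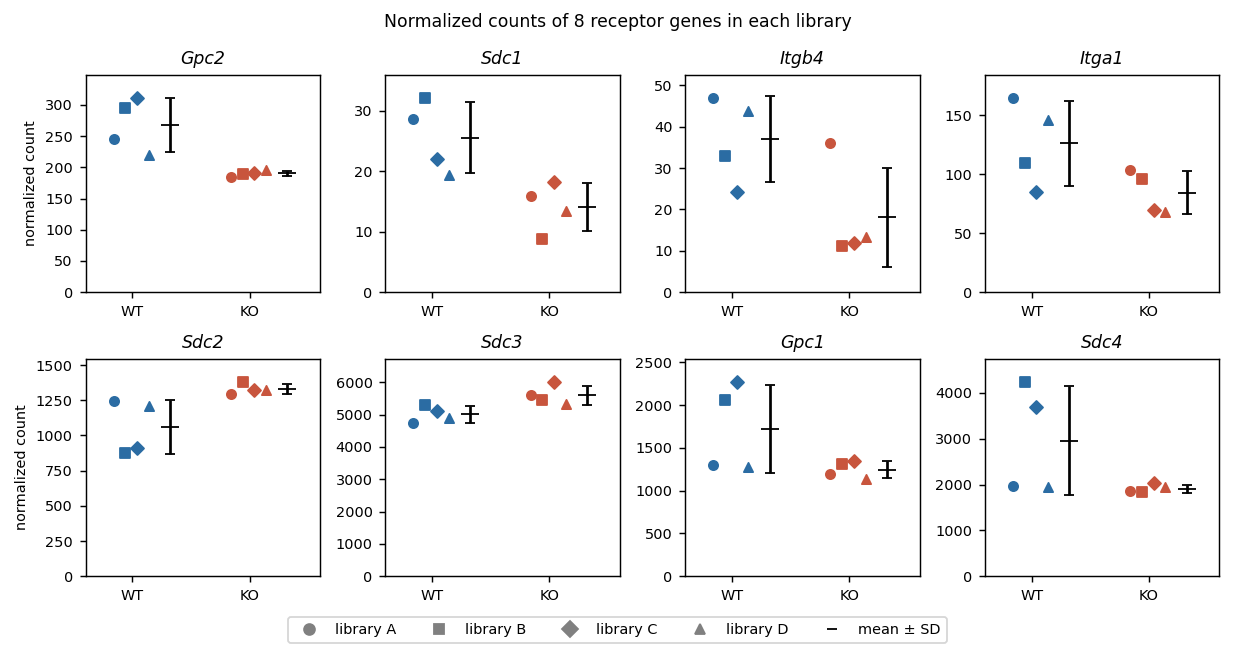
Normalized counts of Gpc2, Sdc1, Itgb4, Itga1, Sdc2, Sdc3, Gpc1 and Sdc4 in each WT (blue) and quadruple KO (red) library, with the library letter as the marker shape and the mean ± SD (n = 4) in black; each vertical axis starts at 0. WT B and WT C are the upper pair for Gpc1 (2057 and 2272) and Sdc4 (4242 and 3692), and KO A is the high KO library of Itgb4 (36.0).

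Glypicans had the lowest family median with all libraries, -0.27, but not without WT B and WT C, where it was -0.08 and that of the integrin beta chains -0.25. Of the 6 genes, 5 had a negative and 1 a positive log2 fold change, and 1 had an unadjusted p under 0.05. Per kb, Gpc1 and Gpc3 led with WT means of 177 ± 52.8 and 157 ± 16.4 and KO means of 128 ± 9.95 and 141 ± 4.04, and they did not keep one order, since Gpc1 was the higher in 2 WT and 1 KO libraries. They were followed by Gpc6 with 82.6 ± 4.61, Gpc2 with 62.3 ± 9.91, Gpc4 with 38.3 ± 5.04 and Gpc5 with 6.58 ± 2.25 in WT.

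Gpc2 (chr5:138271917-138278288, - strand), a glypican of developing neurons, had the lowest p of the receptor genes. It had 244.9, 294.8, 311.1 and 219.8 normalized counts in WT A to D and 184.5, 189.2, 190.9 and 195.8 in KO A to D. The groups did not overlap, and the KO libraries were close to each other (190.1 ± 4.66, against 267.7 ± 42.6 in WT, SD, n = 4). The estimated log2 fold change was -0.48 ± 0.13 (95% interval -0.76 to -0.19; unadjusted p = 0.00406, adjusted p = 0.301, limma; exact permutation p = 0.0286). Without WT B and WT C it was -0.29 ± 0.10 (unadjusted p = 0.0185, adjusted p = 0.342, limma), and the KO mean was 81.8% of the mean of WT A and WT D. A gene model on the same strand, Gm43720, covers 55.3% of the exonic bases of Gpc2 and was not listed in the table, so that a division of reads between both models may enter these values.

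Gpc1 (chr1:92759062-92792113, + strand), a glypican of adult neurons, had 1298, 2057, 2272 and 1275 normalized counts in WT A to D and 1191, 1309, 1346 and 1140 in KO A to D. As for Sdc4, WT A and WT D lay within the KO range and WT B and WT C above it. In limma the log2 fold change was -0.42 ± 0.19 (unadjusted p = 0.0524, adjusted p = 0.302, limma) with all libraries and -0.05 ± 0.08 without WT B and WT C.

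The other glypicans differed less. Gpc3 (chrX:51361303-51703137, - strand), a regulator of body growth through hedgehog and Wnt signals, had 416.0, 525.8, 447.0 and 496.8 in WT A to D and 422.9, 435.0, 407.3 and 430.1 in KO A to D. The ranges overlapped, and the log2 fold change was -0.15 ± 0.09 (adjusted p = 0.375, limma). Gpc6 (chr14:117162727-118216940, + strand), which with Gpc4 is known as an astrocyte signal for excitatory synapses, had 771.9, 835.8, 768.5 and 731.3 in WT A to D and 771.7, 746.3, 730.6 and 658.0 in KO A to D. Its log2 fold change was -0.10 with a 95% interval from -0.28 to 0.09. Gpc4 had 207.6 ± 27.3 in WT and 225.5 ± 21.0 in the KO, and Gpc5 had 31.2 ± 10.6 and 23.3 ± 6.99. Gpc3 and Gpc4 lie 107 kb apart on chromosome X, and Gpc5 and Gpc6 400.1 kb apart on chromosome 14, each pair on the same strand.

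Integrin chains described as receptors of tenascin-C were examined as a group because the mutant carries the Tnc knockout alleles. Of 8 such chains, 7 were tested (Itga2, Itga7, Itga8, Itga9, Itgav, Itgb1 and Itgb3). None of the 7 had an unadjusted p under 0.05 in limma, and their median log2 fold change was 0.01. Their summed normalized count was 5176 to 5642 in WT and 5271 to 5595 in the KO, so that the 2 ranges coincided almost wholly. Most of this sum came from Itgav and Itgb1, with WT means of 3232 and 1560 and KO means of 3026 and 1669. The sum therefore says little about the scarcer chains. Of the 7, only Itgav had all KO libraries below all WT libraries, as did 3.58% of all tested genes.

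The spread within a genotype differed for the receptor genes as it did for all genes. The median coefficient of variation of the 31 tested receptor genes was 21.1% in WT and 8.95% in the KO, and it was higher in WT for 21 of them (67.7%). Over all tested genes the medians were 18.3% and 7.26%, and 83.8% of the genes varied more in WT.

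Both WT B and WT C exceeded WT A and WT D for 8 of the 31 receptor genes (Gpc1, Gpc2, Itga2b, Itga7, Itga9, Itgb5, Sdc3 and Sdc4), against 35.1% of all tested genes. They were both lower than WT A and WT D for 11 (Gpc4, Itga1, Itga2, Itga4, Itga6, Itgam, Itgav, Itgb3, Itgb4, Itgb8 and Sdc2), against 35.8% of all tested genes. The difference between these pairs of WT libraries moved with base composition. Across the 31 genes, the log2 difference of WT B and WT C from WT A and WT D had a Pearson correlation of 0.42 and a Spearman correlation of 0.56 with the percentage of G and C bases in the exons, and across 17554 tested genes with an annotation the values were 0.37 and 0.41. These are descriptions across genes, which share the same libraries and are not independent replicates.

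**Figure D4:**
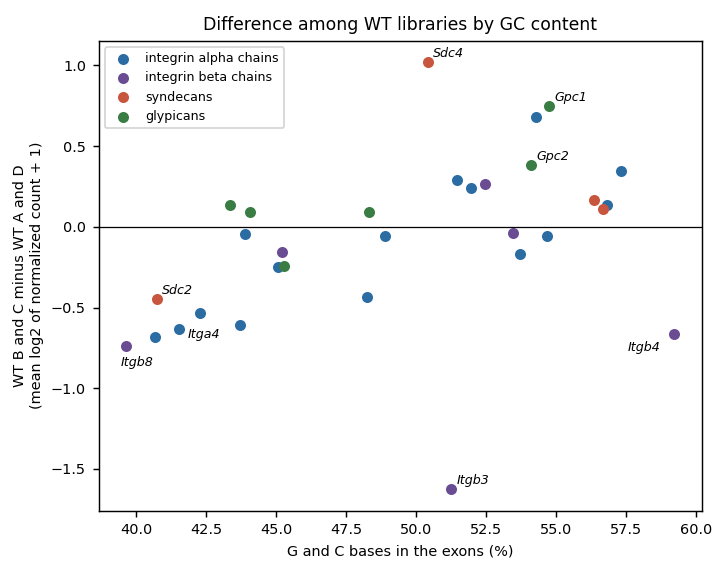
Mean log2 of the normalized count + 1 in WT B and WT C minus that in WT A and WT D, against the percentage of G and C bases in the exons, for the 31 tested receptor genes by family. Genes low in G and C such as Itgb8, Itga4 and Sdc2 lie below 0, Sdc4 has the highest value (1.02) and Itgb3 the lowest (-1.62).

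Transcripts of genes whose products act with these receptors were examined in 4 lists. Among 37 tested cytoplasmic adaptors and kinases of integrins, 0 passed the adjusted test, and 4 had lower and 2 higher means at an unadjusted p under 0.05, where 7.28% and 9.29% of all tested genes had. The 2 genes with the lowest p were Parvg, a parvin of blood cells, with WT and KO means of 30.4 ± 7.98 and 17.7 ± 3.12 (log2 fold change -0.73, adjusted p = 0.301, limma), and Crkl, an adaptor downstream of focal adhesion kinase, with 2009 ± 115.1 and 2325 ± 135.9 (log2 fold change 0.21, adjusted p = 0.301, limma). The median log2 fold change of these genes was -0.05.

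Among 26 tested integrin ligands other than collagens and laminins, 2 were lower in the KO at an adjusted p under 0.05 and 0 were higher, where 0.176% and 0.261% of all tested genes were. At an unadjusted p under 0.05, 6 had lower and 3 higher means, where 7.28% and 9.29% of all tested genes had, and Tnr, which the KO targets, is counted among the lower ones. One of them was Tnr, a targeted gene. The other was Vwf, the von Willebrand factor of endothelial cells and platelets, which is bound by the platelet integrin of Itga2b and Itgb3. Vwf had 228.8, 230.4, 273.7 and 325.8 normalized counts in WT A to D and 56.2, 53.5, 36.9 and 70.0 in KO A to D. The groups did not overlap, and the log2 fold change was -2.29 ± 0.21 (adjusted p = 0.000539, limma), or -2.35 without WT B and WT C (adjusted p = 0.00257, limma). The summed count of 9 endothelial markers, all listed, was 12350 to 16240 in WT and 13950 to 16030 in the KO. More abundant markers carry this sum, since Cdh5 and Tek had WT means of only 119.9 and 159.1. The part of these cells in the value of Vwf was not tested. The chains Itga2b and Itgb3 had log2 fold changes of -0.02 and 0.34, which turned to 0.32 and -0.47 without WT B and WT C.

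Among 25 tested genes for other heparan sulfate proteoglycans and for enzymes or partners of proteoglycans, 0 passed the adjusted test, and 1 had a lower and 3 higher means at an unadjusted p under 0.05, against the same 7.28% and 9.29%. The genes with the lowest p were Cd44, a hyaluronan receptor, with 261.5 ± 23.8 in WT and 335.2 ± 36.1 in the KO (log2 fold change 0.36), and Hs6st1, a sulfotransferase of heparan sulfate, with 1402 ± 148.1 and 1683 ± 104.4 (log2 fold change 0.27). Both had an adjusted p of 0.301 in limma and KO libraries that lay above every WT library. Among 12 synaptic partners of glypicans, 0 passed the adjusted test, and 2 had lower and 0 higher means at an unadjusted p under 0.05, against 7.28% and 9.29%. These were Ptprs, a receptor phosphatase for heparan sulfate proteoglycans, and Nrxn3, a neurexin, with log2 fold changes of -0.24 and -0.27 (adjusted p = 0.301 for both, limma). Both were highest in WT B and WT C, and their log2 fold changes were -0.12 and -0.13 without these libraries.

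Retinal and neighbouring cell types were followed through lists of markers, of which no gene passed the adjusted test. The summed count of 8 rod markers was 1351000 to 1754000 in WT and 1765000 to 1908000 in the KO, and that of 8 Müller glia markers was 139900 to 195500 and 140000 to 155100. The listed fibroblast and sclera markers, 7 of 8, summed to 728.1 to 990.4 in WT and 584.7 to 787.0 in the KO. The listed pigment epithelium markers, 8 of 10, summed to 1890 to 4634 and 1888 to 2834, and the pigment epithelium gene Rpe65 was not listed. The listed blood and platelet markers, 6 of 11, summed to 1074 to 1621 in WT and 827 to 1228 in the KO, and the listed lens markers, 5 of 8, to 67.5 to 1742 and 34.5 to 1449. The part of these cells in the receptor values was not tested.

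The 2 genes with the lowest p of each of these lists, and of the other marker lists, had the following log2 fold changes, all with an adjusted p above 0.05 in limma. For rods they were 0.20 for Cnga1 and 0.21 for Sag, and for Müller glia -0.36 for Glul, which was -0.07 without WT B and WT C, and 0.13 for Dkk3. The median log2 fold change of the tested markers was 0.14 for rods and 0.14 for Müller glia. The microglia genes Cx3cr1 and Siglech had 0.41 and 0.54, the endothelial genes Tek and Cdh5 0.42 and 0.34, and the hemoglobin genes Hbb-bs and Hba-a2 -0.45 and -0.40. In the same order these values were 0.33, 0.42, 0.34, 0.12, -0.20 and -0.30 without WT B and WT C. With all libraries the list medians were -0.19 for microglia, 0.02 for endothelial cells and 0.09 for blood cells and platelets. These pairs of genes therefore do not stand for their lists. For fibroblasts and sclera the values were -0.30 for Pdgfra and 0.88 for Dcn, and for the pigment epithelium -0.71 for Dct and 0.54 for Best1. They were 1.08 for Krt15 and -0.11 for Opcml, which neurons also express, and for the lens 0.47 for Bfsp1 and -0.86 for Cryaa. Without WT B and WT C, Dcn had 0.31 and Cryaa turned to 0.70. The list medians were -0.30 for fibroblasts and sclera, -0.27 for the pigment epithelium, 0.08 for the ciliary and corneal list and -0.47 for the lens. Dct, a pigment gene, had the lowest adjusted p of the genes named for these lists (0.0790, limma).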

How the data were processed

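Total RNA of adult mouse retina was sequenced in 4 WT and 4 quadruple KO samples, from 450 ng of RNA per library with a directional kit. The reads were trimmed (Trim Galore 0.6.7) and aligned (STAR 2.7.9a, genome GRCm39) by the authors, who then estimated gene counts with Salmon 1.5.2 and deposited normalized counts from DESeq2 1.32.0 in R 4.1.1. Whether the counting used strand, and the gene annotation, are not given in the sources used here. The deposited columns of fold changes and p-values from the authors' own comparison were not used. The lowest mean in the table was 8.50, so that genes below may have been removed before deposition.

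Normalized counts were not whole and whole reads were not recovered (48.1% to 74.0% of low values per library lay within 0.1 of a whole step), so that no count model was run. Depth was estimated from the size of this step, 0.719 to 1.76 normalized counts per read, and estimated reads cover counting error only. The log2 of each value plus 1 was taken. Genes with a mean of at least 10 were fitted with limma 3.58.1 in R 4.3.3 (lmFit, eBayes with trend, no covariates), 4 against 4 libraries. The p-values were adjusted by Benjamini-Hochberg over 17636 genes, with a call at an adjusted p under 0.05, and single genes were also compared by exact two-sided permutation tests. The fit was tested on simulated data with known fold changes. These data had the same spread for all genes, taken from the KO libraries. The simulation therefore does not cover the wider spread among the WT libraries. Exonic length (union of exons), GC content, positions and overlaps came from the GENCODE annotation of GRCm39, in which all 33 genes were found by their identifiers. Python 3.11.15, numpy 2.4.6, pandas 2.3.3, scipy 1.17.1 and matplotlib 3.10.9 were used.

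The receptor genes, the lists of ligands, adaptors, proteoglycans, synaptic partners and cell type markers, and the tests were chosen with earlier results of these data known. Each receptor gene is named, and values in every library are given for those with an unadjusted p under 0.05, for Gpc1, Gpc2 and Itgb4, for the 3 most abundant genes of each family per kb and for the tested chains described as tenascin-C receptors. Of the other lists, called genes and the 2 genes with the lowest p are named. Alternatives were quantile normalization, median-ratio rescaling, no filter, a minimum mean of 100, eBayes without trend, a pseudocount of 10 or of 0.1, array weights, a replicate block by letter, WT B and WT C left out, and each library left out in turn.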

Additional observations from a re-analysis of the deposited data

Results flagged for a closer look

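Of 66 groups of 4 libraries (33 genes in 2 genotypes), 4 held a library whose gap to the others was above Dixon's 95% critical value, as a share of the range of the group. Chance alone gives about 1 in 20 such groups. Itgb4 had 36.0 normalized counts in KO A against 11.2 to 13.3 in the other KO libraries, and Itgam had 49.4 in KO A against 31.9 to 34.3. Itgav had 3152 in KO D against 2970 to 2993, and Itgb1 had 1297 in WT B against 1627 to 1665 in the other WT libraries. Both high values of KO A belong to scarce genes. The high value of Itgav and the low value of Itgb1 belong to the leading chains of their families.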

How the results depend on the processing

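No receptor gene passed the adjusted test with all libraries or under any of the 18 alternatives, in which the lowest adjusted p was 0.0651 (Itga1 with array weights, limma). At an unadjusted p under 0.05, the 4 lower genes became 2 with a minimum mean of 100, which removes Itgb4 and Sdc1 from the test. The share of all tested genes was 7.40% there, against 7.28% in the main fit. When single libraries were left out, 2 to 6 genes were lower. They were 2 without KO C (Gpc2 and Sdc1), where 3.96% of all tested genes were lower, and 6 without WT D, where 17.2% were. The 2 higher genes became 1 with eBayes without trend (Sdc2), 1 with the replicate block (Sdc2) and 1 without WT B and WT C (Sdc3). The shares of all tested genes were 7.52%, 7.29% and 5.83%, against 9.29% in the main fit. With single libraries left out, 1 to 2 genes were higher. There was 1 without WT C, KO A or KO B, where 4.655%, 5.56% and 5.02% of all tested genes were higher. With the replicate block 6 genes were lower, where 6.92% of all tested genes were. The genes behind equal counts were not always the same. Of the lower genes, Gpc2 was among them in 18 of 18 alternatives, Sdc1 in 16, Itgb4 in 15 and Itga1 in 14, and Itgav took the place of Sdc1 without WT B and WT C. Of the higher genes, Sdc2 was among them in 15 and Sdc3 in 11, with Itga5 in place of Sdc2 with array weights, and Itga4, Itgb8 or Itga5 in place of Sdc3 without WT A, WT D or KO C. The residuals of same-letter libraries correlated at -0.0097, -0.11, 0.098 and 0.050. These low values cannot show whether libraries of the same letter were collected or processed together, because WT B and WT C dominate the WT residuals. Genes with all KO below all WT libraries were 3 (3.58% of all tested genes), and 6 without WT B and WT C (9.70%). They were 3 to 5 when single libraries were left out (5 without WT C, 4.58%). Those with all KO above all WT libraries were 2 (6.16%), and 3 without WT B and WT C (12.5%). They were 2 to 3 otherwise (3 without WT A or KO C, 9.77% and 7.11%).

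Of 545 log2 fold changes under alternatives, 504 kept their sign and 41 reversed, in 14 of the 31 genes; the cause was not tested. With array weights the reversed values were Gpc4 -0.0427, Itga10 -0.0339, Itga2 -0.26, Itga2b 0.24, Itga3 0.12, Itga4 -0.0123, Itgae 0.11, Itgb3 -0.45, Itgb5 0.0025 and Itgb8 -0.0388. Without WT B and WT C they were Itga10 -0.0523, Itga2 -0.29, Itga2b 0.32, Itga3 0.10, Itga4 -0.0287, Itgb3 -0.47, Itgb5 0.0175 and Itgb8 -0.19, and with quantile normalization Itga2b 0.05 and Itgae 0.0129. With single libraries left out, the values ranged from -0.19 to 0.20 for Itga10, -0.0162 to 0.14 for Itga11, -0.25 to 0.13 for Itga2, -0.15 to 0.0889 for Itga2b, -0.16 to 0.0968 for Itga3, -0.54 to 0.20 for Itga8, -0.0310 to 0.19 for Itga9, -0.20 to 0.16 for Itgae, -0.20 to 0.0502 for Itgam and -0.0720 to 0.68 for Itgb3. Precision is limited by the low estimated reads of the scarce genes and by the spread among the WT libraries.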
